A study of Homo sapiens with 15 samples.

Results

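Androgen and steroid conjugation enzymes were described as 10 listed genes of the 21493 counted in NCI-H295R, a cell line from a human adrenocortical carcinoma that retains the synthesis of adrenal steroids, androgens included. The genes were AKR1C1, AKR1C2, AKR1C3, SULT2A1, PAPSS2, CYB5A, STS, SRD5A1, HSD11B2 and HSD17B4. They were taken by symbol from a list chosen with earlier results of these data known. RNA was sequenced from 3 libraries of cells given a plasmid for active NFATc4 (delta-NFAT3) and 4 libraries of mock cells given the empty pcDNA3.T7 plasmid, all taken 3 days after transfection. A further 4 libraries are labelled NFATc4-KO (numbers 1, 2, 3 and 5) and 4 are labelled control (numbers 1 to 4). By the study's methods the knockout cells grew from single cells after CRISPR editing with a pair of guides, and the controls were transfected in parallel with empty plasmids. Which clone each library came from is not stated in the sources used here. All cells grew in DMEM-F12 with serum and insulin-transferrin-selenium.

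The zona reticularis of the adrenal secretes most of its androgen as a sulfate. CYP17A1 makes dehydroepiandrosterone (DHEA) with the help of cytochrome b5 (CYB5A), SULT2A1 adds the sulfate from the donor PAPS, and PAPSS2 makes PAPS. STS removes the sulfate again. AKR1C3 reduces androstenedione to testosterone, SRD5A1 reduces testosterone to dihydrotestosterone, and AKR1C2 and AKR1C1 inactivate dihydrotestosterone and progesterone. HSD11B2 oxidizes cortisol to cortisone. HSD17B4 is a peroxisomal enzyme of fatty acid and bile acid side-chain oxidation that also oxidizes estradiol.

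The 3 AKR1C genes lie side by side on chromosome 10 (GRCh38; AKR1C1 chr10:4963253-4983283, AKR1C2 chr10:4987775-5018031, AKR1C3 chr10:5035354-5107686), and their reads are partly shared. Of all stretches of 100 bases in the reference transcript, 12.6% of AKR1C1, 27.8% of AKR1C2 and 7.82% of AKR1C3 also occurred in another gene, each time another AKR1C gene. The other 7 members shared none. SULT2A1 lies at chr19:47870467-47886315 and PAPSS2 at chr10:87659613-87747705. HSD11B2 shares 248 exon bases, 9.29% of its own, with an antisense lncRNA that was not among the counted genes. How reads were assigned by strand and among several matches is not given in the sources used here, so values of AKR1C1 and AKR1C2 are uncertain.

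The promoters below, the 250 bases before the RefSeq start on the gene's own strand (GRCh38), are shown because AKR1C1 differed in direction from AKR1C2 and AKR1C3 between the library sets numbered 1 and 2 and 3 to 5, and SULT2A1 had the largest log2 difference of the members between those sets. They came from chr10:4963165-4963414 for AKR1C1, chr10:5003858-5004107 for AKR1C2 (minus strand), chr10:5048531-5048780 for AKR1C3 and chr19:47886316-47886565 for SULT2A1 (minus strand). Capitals mark GGAAA, the core letters bound by NFAT proteins, and in SULT2A1 the letters AAGGTTA, which resemble the AAGGTCA bound by steroidogenic factor SF-1.
AKR1C1: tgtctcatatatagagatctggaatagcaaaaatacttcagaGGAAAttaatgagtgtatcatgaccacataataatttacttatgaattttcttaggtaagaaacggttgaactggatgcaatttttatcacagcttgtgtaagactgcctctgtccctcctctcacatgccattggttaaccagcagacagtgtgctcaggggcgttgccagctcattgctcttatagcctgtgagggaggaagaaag
AKR1C2: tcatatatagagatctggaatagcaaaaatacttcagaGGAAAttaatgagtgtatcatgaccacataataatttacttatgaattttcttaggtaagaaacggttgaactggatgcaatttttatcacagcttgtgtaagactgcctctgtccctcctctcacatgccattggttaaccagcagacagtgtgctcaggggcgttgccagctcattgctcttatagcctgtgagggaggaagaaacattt
AKR1C3: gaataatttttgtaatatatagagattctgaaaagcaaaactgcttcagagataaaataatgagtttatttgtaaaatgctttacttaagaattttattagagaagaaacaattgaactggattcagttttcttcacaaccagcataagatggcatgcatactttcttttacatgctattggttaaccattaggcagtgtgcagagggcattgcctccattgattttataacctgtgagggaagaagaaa
SULT2A1: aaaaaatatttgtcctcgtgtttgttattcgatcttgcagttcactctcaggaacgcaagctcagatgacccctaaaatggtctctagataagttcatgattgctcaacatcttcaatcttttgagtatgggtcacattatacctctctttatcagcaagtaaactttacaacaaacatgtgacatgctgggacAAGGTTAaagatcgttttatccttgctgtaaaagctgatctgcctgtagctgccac

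The AKR1C1 and AKR1C2 promoters were 99.6% identical over 246 aligned bases, while AKR1C3 was 76.8% identical to AKR1C1 and 77.2% identical to AKR1C2. Searched on both strands, GGAAA lay at position -208 of AKR1C1 and -212 of AKR1C2, counted back from the start. It did not occur in the windows printed for AKR1C3 or SULT2A1, but a further RefSeq start of AKR1C3 had it at position -44. GGAAA is common and was found in 55.6% of 35116 promoter windows of this length. AAGGTTA lay at position -56 of SULT2A1 and in 1.72% of windows, and this spelling was chosen after the SULT2A1 promoter was read. Promoters were matched for 8 of the 10 members.

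Libraries held 18.8 to 28.2 M counts, and all 10 members were tested in every comparison. NFATC4 itself stood at 329, 358 and 340 CPM (counts scaled to a common library size) in active NFATc4 cells, against 92.2, 92.9, 106 and 87.6 CPM in mock cells. Libraries labelled NFATc4-KO held 92.2 and 84.8 CPM (numbers 1 and 2) and 58.2 and 53.8 CPM (3 and 5), against 115 and 110 CPM (1 and 2) and 45.0 and 54.1 CPM (3 and 4) in control libraries. Thus 2 control libraries held less NFATC4 RNA than 2 libraries labelled NFATc4-KO of the other set. Within numbers 1 and 2, NFATC4 was lower by label without overlap (-0.33, edgeR adjusted p = 0.000467), and within numbers 3 to 5 it was not called (0.17, adjusted p = 0.287). RNA thus went with the labels in numbers 1 and 2 and not in numbers 3 to 5. A count per gene does not show an edit that leaves the transcript in place. The study also examined NFATC4 protein by immunoblot in its control and knockout cells, which these counts do not address. Numbers 1 and 2 of both labels resembled each other (correlations across genes of 0.993 to 0.997), as did numbers 3 to 5 (0.987 to 0.996), and the sets resembled each other less (0.952 to 0.958). Of 10 adrenocortical markers, 10 reached 1 CPM in some library. By contrast, 5 of 5 endothelial markers, 4 of 5 medullary, 4 of 5 leukocyte and 4 of 5 hepatocyte markers stayed under 1 CPM everywhere. In these bulk libraries, fewer cells of a type and less RNA per cell cannot be told apart.

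Levels per kilobase of reference transcript spanned the members widely. Over the 15 libraries, AKR1C3 averaged 72.0 CPM per kb, HSD17B4 57.6 and SULT2A1 51.3. CYB5A (7.75), PAPSS2 (6.54), SRD5A1 (5.96) and STS (4.02) formed a middle range, followed by AKR1C2 at 1.87, HSD11B2 at 0.953 and AKR1C1 at 0.199 CPM per kb. The range over libraries was 40.4 to 154 for AKR1C3 and 19.0 to 82.6 for SULT2A1 but only 54.0 to 61.7 for HSD17B4. AKR1C1 had 14 to 54 counts and HSD11B2 21 to 74 counts per library, so relative counting error was largest for these genes.

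**Figure D1:**
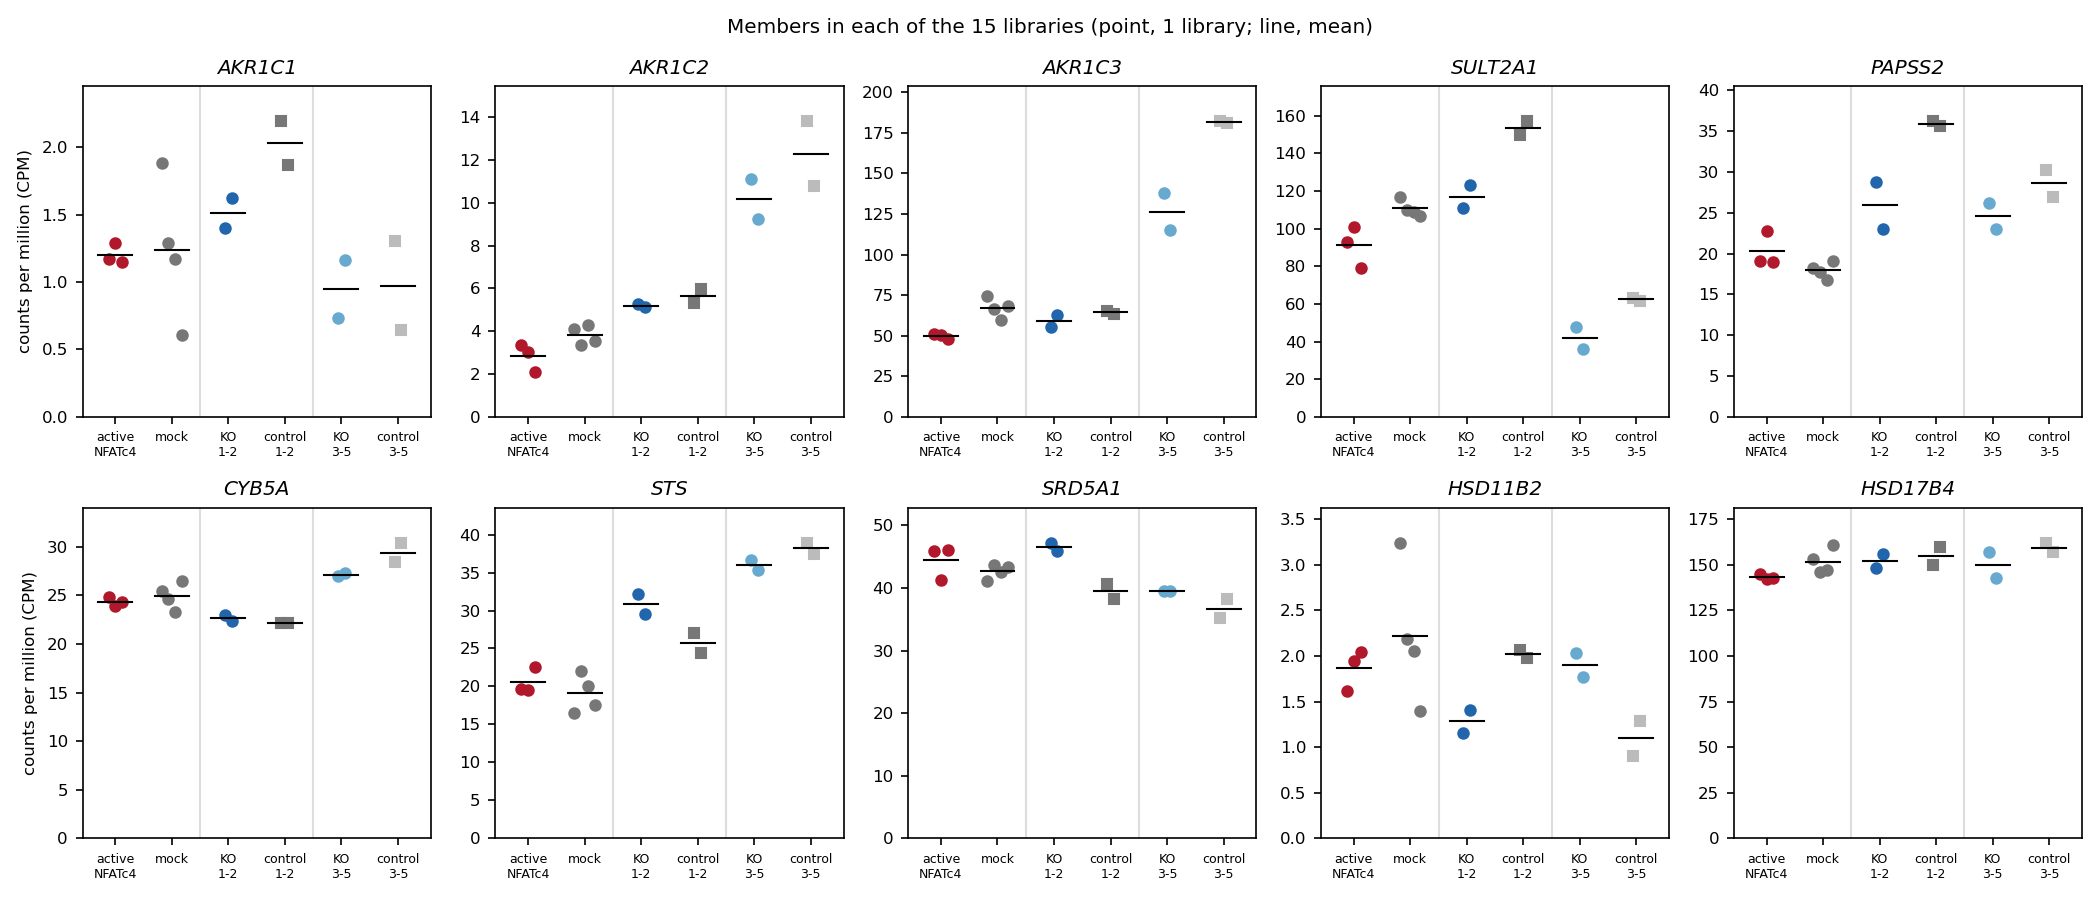
CPM (vertical axis, from 0) of each member in each of the 15 libraries, grouped as active NFATc4, mock, and libraries labelled NFATc4-KO (KO) and control with numbers 1 and 2 or 3 to 5. Points are libraries and lines are means. AKR1C3 stood at 47.9 to 51.2 CPM in active NFATc4 cells, under the 59.5 to 74.4 CPM of mock cells, and at 115 to 182 CPM in numbers 3 to 5.

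The question for active NFATc4 against mock was whether transfection with the active transcription factor changed these enzymes. AKR1C3 and SULT2A1 fell, and no member rose. AKR1C3, the testosterone-forming reductase, stood at 51.2, 50.4 and 47.9 CPM in active NFATc4 cells, against 74.4, 66.6, 59.5 and 68.0 CPM in mock cells. All 3 active NFATc4 libraries lay under all 4 mock libraries. The difference was -0.42 on the log2 scale (SE 0.07, edgeR quasi-likelihood adjusted p = 0.00047), or 1.34-fold lower.

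SULT2A1, the DHEA sulfotransferase, stood at 93.1, 101 and 79.3 CPM in active NFATc4 cells, against 117, 110, 109 and 107 CPM in mock cells. The groups did not overlap, and library 3 of active NFATc4 was the lowest. The log2 difference was -0.27 (SE 0.07, edgeR adjusted p = 0.0146), or 1.21-fold lower. Without active NFATc4 replicate 3 it was -0.18 with an adjusted p of 0.146, no longer called.

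These 2 of 10 members were called lower, where 6.1% of the 14094 genes tested were called lower and 7.69% higher (adjusted p under 0.05). With 0 members called higher, 1 member (PAPSS2) was higher at an unadjusted p under 0.05, and neither DESeq2 nor limma-voom called any higher. Neither change reached the study's 2-fold cutoff, which 2.33% of genes passed with the adjusted p. The median log2 difference of the members was -0.053, against -0.003 over all genes. In a fit of all 15 libraries with a single mean per group, in which control and NFATc4-KO libraries widen the spread, both calls were lost (AKR1C3 adjusted p = 0.748, SULT2A1 0.884). A fit of all 15 libraries that gave each label a separate mean in each library set kept both calls.

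PAPSS2, which supplies the sulfate donor, stood at 19.1, 22.8 and 19.0 CPM in active NFATc4 cells, against 18.2, 17.8, 16.8 and 19.1 CPM in mock cells. The groups overlapped, with a log2 difference of 0.18 (interval 0 to 0.36, edgeR adjusted p = 0.191). AKR1C2 stood at 3.36, 3.05 and 2.10 CPM in active NFATc4 cells, against 4.12, 3.34, 4.31 and 3.52 CPM in mock cells. That log2 difference, -0.40 (SE 0.17, edgeR adjusted p = 0.133), was close to that of AKR1C3 but was not called. AKR1C1 averaged 1.21 ± 0.0746 CPM in active NFATc4 cells (SD, n = 3) and 1.24 ± 0.522 CPM in mock cells (SD, n = 4), a fold of 0.998. The 3 AKR1C genes summed gave a log2 difference of -0.41 (SE 0.07, edgeR adjusted p = 0.000508), and AKR1C3 held 91.9 to 93.7% of that sum in active NFATc4 cells and 91.6 to 94.3% in mock cells.

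The remaining members did not pass the test. HSD17B4 averaged 143 ± 1.68 CPM in active NFATc4 cells (SD, n = 3) and 152 ± 6.77 CPM in mock cells (SD, n = 4), and its libraries did not overlap, as was so in the lower direction for 12.5% of genes. Its log2 difference was -0.07 (interval -0.19 to 0.05, edgeR adjusted p = 0.459). The intervals were -0.19 to 0.13 for CYB5A, -0.09 to 0.32 for STS, -0.08 to 0.21 for SRD5A1 and -0.73 to 0.26 for HSD11B2. The ratio of SULT2A1 to STS counts, sulfation over its reversal, ran from 3.5 to 5.19 in active NFATc4 libraries and from 4.98 to 7.06 in mock libraries, so the groups overlapped.

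**Figure D2:**
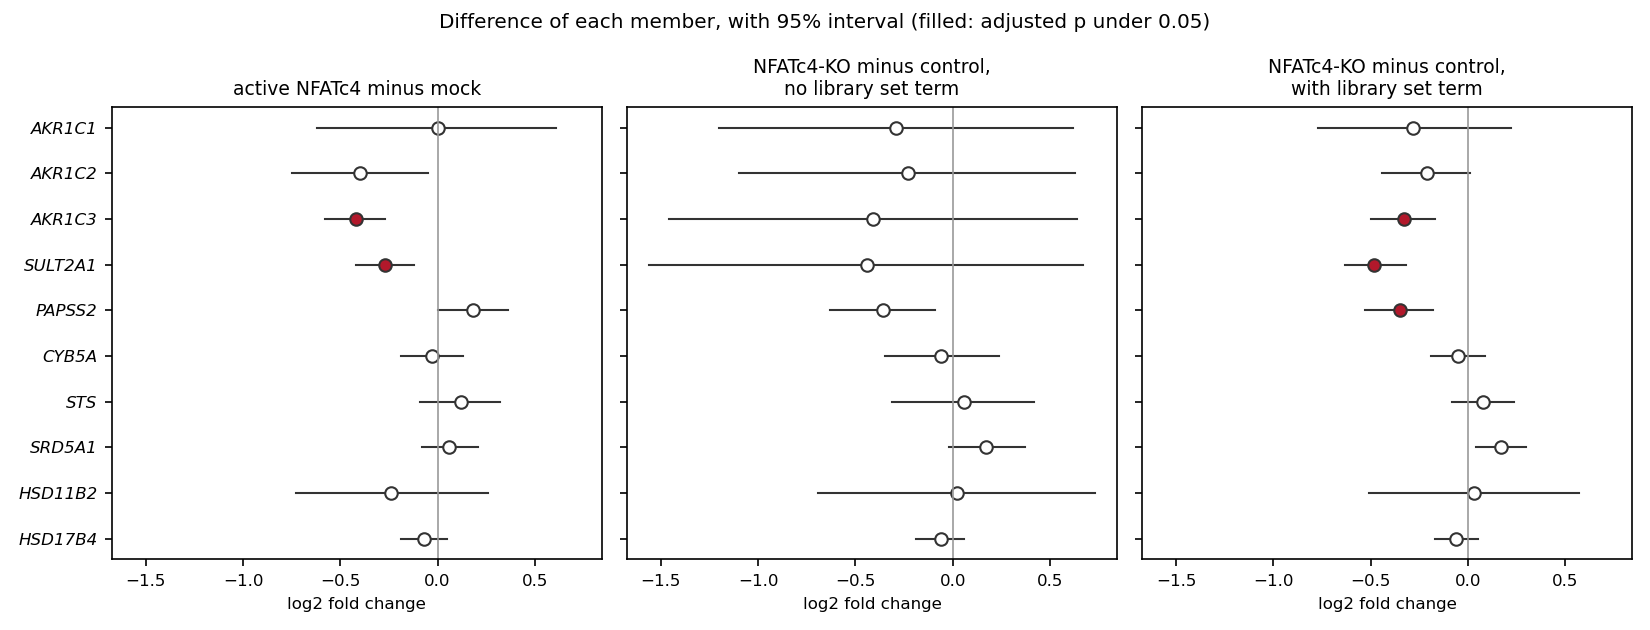
Log2 fold change of each member (horizontal axis) with its 95% interval (lines), for active NFATc4 minus mock and for libraries labelled NFATc4-KO minus control without and with a term for the library set. Filled points have an adjusted p under 0.05. AKR1C3 (-0.42) and SULT2A1 (-0.27) are filled for active NFATc4, none for NFATc4-KO without the set term, and SULT2A1 (-0.48), PAPSS2 (-0.35) and AKR1C3 (-0.33) with it.

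Enzymes acting before and beside the members moved in both directions in active NFATc4 cells. Of 27 other androgen enzymes, 19 were tested, 4 rose and 2 fell, beside 7.69% called higher and 6.1% lower over all genes. CYP17A1, which makes DHEA, stood at 195 CPM in active NFATc4 cells and 268 CPM in mock cells (log2 difference -0.45, edgeR adjusted p = 7.72e-05). HSD17B7, which acts in cholesterol synthesis and forms estradiol, also fell (-0.50). HSD3B2, which commits steroids to the cortisol and androstenedione route, rose to 95.8 CPM in active NFATc4 cells, against 63.3 CPM in mock cells (0.61, edgeR adjusted p = 4.48e-05). HSD17B1, aromatase (CYP19A1) and RDH16 rose as well, with HSD17B1 and RDH16 near or under 2 CPM (means of 1.99 and 0.925 CPM in active NFATc4 cells).

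Of 29 other genes of sulfate handling, 20 were tested, 2 rose and 0 fell, where 7.69% of all genes were called higher and 6.1% lower. The risers were SLC26A11, a sulfate transporter (0.30), and ABCC1, an exporter of conjugated steroids (0.30). None of the 20 was lower at an unadjusted p under 0.05 in edgeR, and DESeq2 and limma-voom also called 0 lower. Among peroxisomal partners of HSD17B4, 2 fell (CROT, a carnitine transferase, -0.27, and catalase CAT, -0.23). Of 23 tested targets of NRF2, the oxidative stress factor known to drive AKR1C genes, 3 rose and 5 fell. FTL (-0.41) and EPHX1 (-0.34) fell, whereas AKR1B10, a relative of the AKR1C enzymes, rose (1.48) at means of 0.905 CPM in active NFATc4 cells and 0.316 CPM in mock cells. Fibroblast markers summed to 45.6 to 52.7 CPM in active NFATc4 cells, against 21.0 to 26.3 CPM in mock cells, 2 of 5 staying under 1 CPM everywhere. That sum was mostly COL3A1 (38.1 against 12.1 CPM), and its part in the results was not tested. Of 10 adrenocortical markers, 4 were called higher in active NFATc4 cells (MC2R, HSD3B2, CYP21A2 and SCARB1) and 1 lower (CYP17A1). Over all genes 7.69% were called higher and 6.1% lower.

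For libraries labelled NFATc4-KO against control, the question was whether loss of the factor changed the enzymes. Without a term for the library set, 0 of 10 members and 0 of 13868 genes were called by edgeR (0% in either direction). At an unadjusted p under 0.05, 657 genes were higher and 600 lower, including 1 member (PAPSS2, lower). DESeq2 called 71 genes higher and 97 lower, and limma-voom called 13 and 13, with no member by either tool. Numbers 1 and 2 and numbers 3 to 5 differed by more than the labels did, as for SULT2A1. It stood at 111, 123, 48.0 and 36.2 CPM in libraries labelled NFATc4-KO (numbers 1, 2, 3 and 5), against 150, 157, 63.1 and 61.7 CPM in control libraries (numbers 1 to 4). Its log2 difference was -0.44 with an SE of 0.48.

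With a term for the library set, SULT2A1, PAPSS2 and AKR1C3 were lower in libraries labelled NFATc4-KO. These were 3 of 10 members, where 5.75% of 14200 genes were called lower and 4.09% higher. No member was called higher by edgeR or DESeq2, 1 was higher at an unadjusted p under 0.05 (SRD5A1), and limma-voom called that 1. The log2 difference of SULT2A1 was -0.48 (SE 0.07, edgeR adjusted p = 0.000936). The paired fit blocks on replicate numbers and keeps only numbers found under both labels. It thus left out NFATc4-KO replicate 5 and control replicate 4. In that fit SULT2A1 was at -0.39 (edgeR adjusted p = 0.029). SULT2A1 was the only member called, where 0.684% of 13890 genes were called lower and 0.317% higher.

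PAPSS2 stood at 28.8, 23.0, 26.2 and 23.0 CPM in libraries labelled NFATc4-KO (numbers 1, 2, 3 and 5), against 36.2, 35.6, 30.2 and 27.0 CPM in control libraries (numbers 1 to 4). Only control replicate 4 lay under the highest library labelled NFATc4-KO, and the log2 difference with the set term was -0.35 (SE 0.08, edgeR adjusted p = 0.014). AKR1C3 stood at 55.3, 62.9, 138 and 115 CPM in libraries labelled NFATc4-KO, against 65.1, 63.6, 182 and 181 CPM in control libraries, in the same order of numbers. Its log2 difference with the set term was -0.33 (SE 0.08, edgeR adjusted p = 0.0129). Without NFATc4-KO replicate 5 the adjusted p was 0.0514 for PAPSS2 and 0.0633 for AKR1C3, and without control replicate 4 it was 0.0604 for AKR1C3. As NFATC4 RNA went with the labels in numbers 1 and 2 only, the directions are those of the labels.

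Within each set, with 2 libraries against 2, only SULT2A1 was called in both. It was lower by label in numbers 1 and 2 (-0.38, edgeR adjusted p = 0.000128) and in numbers 3 to 5 (-0.57, adjusted p = 0.000103). PAPSS2 was called in numbers 1 and 2 only (-0.47, adjusted p = 0.000862, against -0.22 in numbers 3 to 5), and AKR1C3 in numbers 3 to 5 only (-0.52, adjusted p = 8.86e-06, against -0.11 in numbers 1 and 2). SULT2A1, AKR1C3 and PAPSS2 were lower without overlap in both sets, as were 11.2% of all genes. SRD5A1 was higher without overlap in both, as were 9.92%. STS (0.27, adjusted p = 0.019) and SRD5A1 (0.25, adjusted p = 0.0118) were higher in libraries labelled NFATc4-KO in numbers 1 and 2. In that set 1100 genes were called higher and 1214 lower. Many genes were also called in numbers 3 to 5, with counts in the closing section on processing. No share of genes called within a set, or in both sets, is given here. The within-set calls are therefore not read as particular to the members.

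HSD11B2 went opposite ways in the sets. It stood at 1.16 and 1.41 CPM in libraries labelled NFATc4-KO, against 2.07 and 1.98 CPM in control libraries of numbers 1 and 2, and at 2.03 and 1.77 CPM against 0.908 and 1.29 CPM in numbers 3 to 5. The test of that difference between the sets did not pass after adjustment (log2 -1.45, SE 0.40, edgeR adjusted p = 0.0699). The same test gave 0.0823 for AKR1C3 and 0.146 for STS, and passed for none of the 10 members (3 had an unadjusted p under 0.05).

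**Figure D3:**
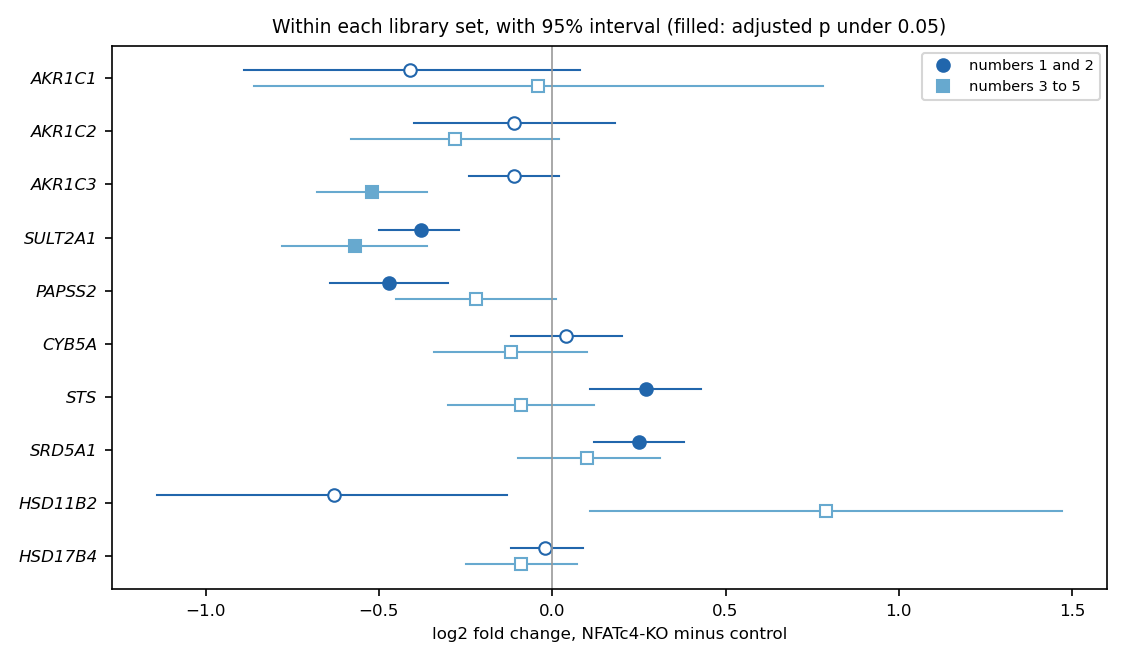
Log2 fold change of each member (horizontal axis) for libraries labelled NFATc4-KO minus control, within numbers 1 and 2 (circles) and within numbers 3 to 5 (squares), with 95% intervals. Filled symbols have an adjusted p under 0.05. SULT2A1 is filled in both sets (-0.38 and -0.57), and HSD11B2 lies on opposite sides of 0 (-0.63 and 0.79).

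Markers of cell types also moved with the set term. Of 10 adrenocortical markers 6 were lower by label and 0 higher (0 also at an unadjusted p under 0.05 in edgeR, and by DESeq2 and limma-voom), among them STAR (-0.42) and NR5A1 (-0.33). Over all genes in that fit, 5.75% were called lower and 4.09% higher. The medullary marker CHGB (-0.28, edgeR adjusted p = 0.00828) and the fibroblast marker COL3A1 (-0.46, adjusted p = 0.00701) were lower too. The other fibroblast markers tested, COL1A1 (0.07) and DCN (0.40), lay on the other side of 0 and were not called. CHGB was the only medullary marker tested, since 4 of 5 stayed under 1 CPM everywhere. Medullary markers summed to 29.4 to 30.0 CPM in libraries labelled NFATc4-KO, against 34.4 to 36.4 CPM in control libraries of numbers 1 and 2, and to 48.7 to 55.4 CPM against 63.3 to 64.8 CPM in numbers 3 to 5. Fibroblast markers summed to 22.3 to 23.5 CPM against 24.9 to 25.8 CPM in numbers 1 and 2, and to 14.3 CPM in both libraries against 17.2 to 19.0 CPM in numbers 3 to 5 of the same labels. Their part in the results was not tested.

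Among other androgen enzymes with the set term, 0 rose and 4 of 19 fell, beside 4.09% called higher and 5.75% lower over all genes. No member of that list was higher at an unadjusted p under 0.05 in edgeR, and DESeq2 and limma-voom called 0 higher. The 4 lower by label were CYP17A1 (84.3 CPM in libraries labelled NFATc4-KO and 140 CPM in control libraries, -0.74, edgeR adjusted p = 2.58e-05), HSD3B2 (-0.44), CYB5B (-0.32) and CYP19A1 (-0.28). CYP17A1 was thus lower in active NFATc4 cells and by the NFATc4-KO label, as were SULT2A1 and AKR1C3. HSD3B2 (0.61) and CYP19A1 (0.28) were lower by the label but rose in active NFATc4 cells. CYB5B (-0.10) and PAPSS2 (0.18), also lower by the label, were not called in active NFATc4 cells. The groups come from separate transfections with separate references.

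Numbers 1 and 2 of both labels against numbers 3 to 5 of both labels was taken as a description, since the sets are not groups of the study and were noticed in the data. Here 6 of 10 members did not overlap, 2 higher and 4 lower in numbers 1 and 2, where 37.6% of 14200 genes did not overlap (19.1% higher, 18.5% lower). SULT2A1 ran from 111 to 157 CPM in numbers 1 and 2 and from 36.2 to 63.1 CPM in numbers 3 to 5, a log2 difference of 1.38 (SE 0.07). AKR1C3 ran the other way, from 55.3 to 65.1 CPM in numbers 1 and 2 and from 115 to 182 CPM in numbers 3 to 5 (-1.30, SE 0.08). SULT2A1, AKR1C3 and AKR1C2 exceeded 2-fold, as did 8.65% of all genes. NFATC4 itself was higher in numbers 1 and 2 (0.92, SE 0.09).

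AKR1C2 followed AKR1C3, with 5.12 to 5.95 CPM in numbers 1 and 2 and 9.26 to 13.8 CPM in numbers 3 to 5 (-1.06, SE 0.11). AKR1C1 did not, with 1.40 to 2.19 CPM in numbers 1 and 2 and 0.643 to 1.30 CPM in numbers 3 to 5 (0.87, SE 0.24), on 14 to 54 counts. As given above, the promoter windows of AKR1C1 and AKR1C2 were nearly identical, and reads of these genes are partly shared. Whether either bears on this difference was not tested. STS (-0.40, SE 0.08) and CYB5A (-0.34, SE 0.07) were lower in numbers 1 and 2, while PAPSS2, SRD5A1, HSD11B2 and HSD17B4 overlapped between the sets, with HSD17B4 at -0.02 (SE 0.05). The ratio of AKR1C3 to SULT2A1 counts, which no scaling of a library can alter, was 0.405 to 0.513 in numbers 1 and 2 and 2.88 to 3.19 in numbers 3 to 5. It was 0.498 to 0.604 in active NFATc4 libraries and 0.546 to 0.638 in mock libraries.

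**Figure D4:**
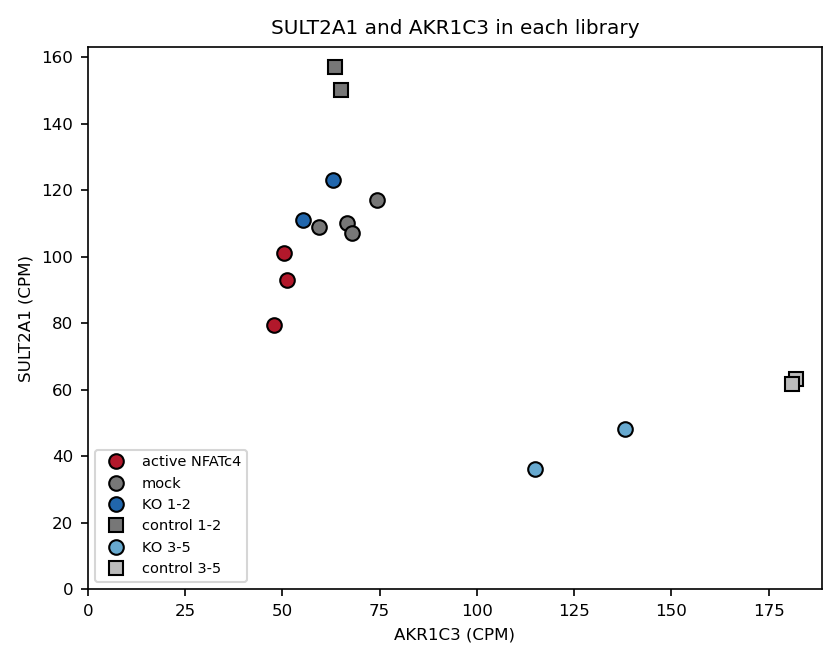
SULT2A1 (vertical axis, CPM) against AKR1C3 (horizontal axis, CPM), each point a library of the group in the legend, with both axes from 0. Libraries numbered 3 to 5 of both labels (KO and control) sit at 115 to 182 CPM of AKR1C3 and 36.2 to 63.1 CPM of SULT2A1, apart from the other 11 libraries.

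Across the other lists, CYP17A1 (152 CPM in numbers 1 and 2 and 72.6 CPM in numbers 3 to 5), and the adrenocortical genes STAR (614 and 260 CPM) and CYP21A2 (100 and 39.3 CPM), were higher with SULT2A1 in numbers 1 and 2, in the same order of sets. Of 10 adrenocortical markers, 6 were higher without overlap and 0 lower. Aromatase CYP19A1 (47.1 CPM in numbers 1 and 2 and 105 CPM in numbers 3 to 5) ran with AKR1C3. NRF2 targets were mixed, with 12 of 23 lower and 3 higher without overlap in numbers 1 and 2, beside 18.5% lower and 19.1% higher over all genes. Among the lower were NQO1, a quinone reductase (118 CPM in numbers 1 and 2 and 221 CPM in numbers 3 to 5), and AKR1B10 (0.232 and 2.44 CPM). The higher were HMOX1 (26.3 and 18.1 CPM), GCLM (95.9 and 85.4 CPM) and FTL (387 and 276 CPM). Of 20 tested genes of sulfate handling, 6 were higher and 3 lower without overlap in numbers 1 and 2. The higher ones included the sulfatase ARSB (32.5 CPM in numbers 1 and 2 and 22.3 CPM in numbers 3 to 5) and the exporter ABCC4 (9.94 and 3.53 CPM). The sulfatase-activating factor SUMF1 (17.3 and 38.2 CPM) and its relative SUMF2 (104 and 239 CPM) were lower in numbers 1 and 2, as was PAPSS1, the other PAPS synthase (43.5 and 52.1 CPM).

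Ordered by group means, AKR1C3 ran upwards from active NFATc4 (49.9 CPM) through NFATc4-KO 1 and 2 (59.1), control 1 and 2 (64.3), mock (67.1) and NFATc4-KO 3 to 5 (127) to control 3 to 5 (181), and of these neighbours only control 1 and 2 and mock overlapped. SULT2A1 ran upwards from NFATc4-KO 3 to 5 (42.1 CPM) through control 3 to 5 (62.4), active NFATc4 (91.2), mock (111) and NFATc4-KO 1 and 2 (117) to control 1 and 2 (154), and only mock and NFATc4-KO 1 and 2 overlapped. STS was lowest in the transfected cells, at 20.6 CPM in active NFATc4 and 19.1 CPM in mock, which overlapped, and so was PAPSS2, at 19.0 to 22.8 CPM in active NFATc4 and 16.8 to 19.1 CPM in mock. Since transfected and edited cells were separate experiments, these differences cannot be told apart from the experiment.

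As a description over the 15 libraries, which share the split into sets, the genes most like SULT2A1 in log2 CPM were CD83 (Pearson r = 0.984), CDH11 (0.981) and SGCE (0.979), among 13073 genes compared. Those most like AKR1C3 were VIM (0.978), KCNJ8 (0.977) and S100A6 (0.975). Those most like AKR1C2 were ANXA6 (0.975), LRP8 (0.967) and FSTL1 (0.962), and those most like STS were MAP1B (0.980), RANBP2 (0.979) and TSC1 (0.977). PAPSS2 was closest to FBXW8 (0.956), CYB5A to UBE2QL1 (0.951), SRD5A1 to SNRK (0.915), AKR1C1 to NRG4 (0.864), HSD11B2 to SLC2A4RG (0.844) and HSD17B4 to SENP3-EIF4A1 (0.834). Between members, AKR1C2 and AKR1C3 were most alike (0.905), and AKR1C3 and SRD5A1 least (-0.777).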

How the data were processed

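RNA-Seq counts per gene of 15 NCI-H295R libraries were used. The authors made mRNA libraries, used STAR with GRCh38.p13 for alignment and featureCounts for counting, and the deposited values are raw counts. Tool versions are not given in the sources used here. Of 21493 genes, 21400 were matched to a symbol.

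TMM factors, CPM and tests were computed with R 4.3.3 and edgeR 4.0.16 (quasi-likelihood, robust, filterByExpr), with Benjamini-Hochberg adjustment over all genes tested and calls at an adjusted p under 0.05. Active NFATc4 and mock were fitted as 7 libraries alone, and NFATc4-KO and control as 8 libraries without a set term. Intervals are 95% and come from the fit. The set term and the within-set fits were alternatives, as were DESeq2 1.42.0, limma 3.58.1 (voom), other filters and size factors, a replicate block and each library left out. Their repeats with the set term were chosen after seeing the data. The 10 members and all lists were chosen with earlier results of these data known. The text names every member, and of each list up to 4 called genes a direction by smallest p in active NFATc4 against mock. Genes named beside the set term or for the library sets were chosen after their values were seen.

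Same-numbered libraries labelled NFATc4-KO and control deviated together (correlations 0.873, 0.844 and 0.769), but within numbers 1 and 2 the value was 0.0974, so the numbers largely track the sets. Active NFATc4 and mock were not paired (0.183, -0.159 and 0.0488). On simulated data for active NFATc4 against mock (14094 genes), 94% of 2-fold changes were recovered, and for NFATc4-KO against control (13868 genes, no set term) 68%. The members differed by less than 2-fold between labels, so these shares do not say how often changes of that size are found. No source says that libraries came from separate cultures, so p-values measure only the spread between these libraries. No libraries were identical. Intervals and counts cover no systematic error of counting shared reads. Some results are not reported here.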

Additional observations from a re-analysis of the deposited data

How the results depend on the processing

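AKR1C1 and HSD11B2 had the fewest counts and changed sign most often, from main values mostly near 0, and CYB5A and STS changed sign as well. Of values under the alternatives, 568 kept their direction and side of the threshold, 28 changed sign, 15 gained a call, 6 lost one and 7 moved. These counts score the run with AKR1C1 to AKR1C3 summed as a value of each of those genes. AKR1C1 and AKR1C2 gained calls only through that sum (edgeR adjusted p = 0.000508 for active NFATc4 and 0.0114 with the set term). The sign change of AKR1C1 between the sets also came from the sum. In active NFATc4 cells the sign of AKR1C3 and SULT2A1 was kept in every alternative run, but the call was lost in 1 for AKR1C3 and in 2 for SULT2A1. SULT2A1 with the set term kept its call in all 12. Where no cause is given, it was not tested.

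For active NFATc4 against mock, the fit of all 15 libraries with a single mean per group called 0 members lower. It called 326 genes higher and 204 lower, as its spread takes in the other groups. With limma-voom 1341 genes were lower and AKR1C1 was at 0.22. With each library left out, 1 to 2 members were lower, 644 to 1341 genes were higher and 458 to 1219 lower, AKR1C1 ran from -0.26 to 0.28 and HSD11B2 from -0.43 to 0. The pairing check did not support a block here. With the replicate block, which leaves out mock replicate 4, 2 members were lower, 1053 genes higher and 927 lower.

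For NFATc4-KO against control without the set term, genes called higher and lower were 71 and 97 with DESeq2, 13 and 13 with limma-voom, 31 and 31 in the fit of all 15 libraries, 581 and 817 with the set term, 44 and 95 with the replicate block, 1100 and 1214 within numbers 1 and 2, and 703 and 605 within numbers 3 to 5. Members lower were 3 with the set term, 1 with the replicate block and 2 within each set, and 2 members were higher within numbers 1 and 2. With limma-voom AKR1C2 was at 0.22, AKR1C3 at 0.20, CYB5A at 0.11 and HSD11B2 at -0.32. With the replicate block HSD11B2 was at -0.10, within numbers 1 and 2 it was at -0.63 and CYB5A at 0.04, and within numbers 3 to 5 STS was at -0.09. With each library left out, 0 to 1 genes were higher, and AKR1C2 ran from -0.45 to 0.06, CYB5A from -0.12 to 0.04, HSD11B2 from -0.16 to 0.18 and STS from -0.05 to 0.17.

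With the set term, limma-voom called 1 member higher, 1091 genes higher and 1406 lower, and gave HSD11B2 at -0.18. With each library left out, 1 to 3 members were lower, 201 to 961 genes higher and 370 to 1187 lower, and HSD11B2 ran from -0.18 to 0.22. Between the sets, AKR1C1 to AKR1C3 summed differed by -1.26, opposite in sign to AKR1C1 alone, since AKR1C3 holds most of the sum. Members over 1.5-fold higher in numbers 1 and 2 were 2, and 1 with at least 50 counts in 3 libraries, which leaves AKR1C1 out.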
